A study of Homo sapiens with 3 samples.

Results

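Wnt/beta-catenin target genes were followed on microarrays of the human colorectal carcinoma line HCT116 after knockdown of PRMT1, an enzyme that methylates arginine residues of histone H4 and other proteins. The 10 genes were AXIN2, NKD1, NOTUM, RNF43, ZNRF3, TCF7, LEF1, SP5, ASCL2 and LGR5, which are known targets of the pathway in intestinal epithelium or factors of the TCF family. They were chosen by name. All non-control probes that the scanner files assign to them were used, which gave 14 probes out of 58201, and 4 of the genes had 2 probes each.

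RNA came from 3 samples of this 1 cell line, with 1 array for cells given a scrambled negative control (NC) and 1 array for each knockdown (PRMT1-KD1, or KD1, and PRMT1-KD2, or KD2). The labels describe short interfering RNAs against PRMT1 delivered by lipid transfection and print a pair of sequences, without saying which of them is KD1 and which is KD2. They are shown because the labels give them as the knockdown reagents. The paper's methods also list siRNAs, whereas its results speak of short hairpin RNAs against PRMT1.
PRMT1 siRNA-1: cugaaguccaggucgauggugaaguc
PRMT1 siRNA-2: uuguagucuuuguacugcc
Each group held a single array, so a difference from NC could not be set against the spread between NC samples, which limits the precision of all values given here.

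In the canonical Wnt pathway a ligand engages a Frizzled receptor and an LRP co-receptor. This stops the destruction complex of APC, axin and the kinases GSK3 and CK1 from marking beta-catenin for degradation. Beta-catenin then enters the nucleus and, with TCF and LEF factors, activates genes that maintain intestinal crypt stem cells, several of which feed back to inhibit the pathway. HCT116 cells carry mutant CTNNB1, the gene of beta-catenin, so part of the pathway is active in them without a ligand.

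Values are normalized signals, the log2 of the background-corrected intensity minus the 75th percentile of the same array. A gene was represented by its brightest probe, and 1.5-fold was the threshold of difference. PRMT1 checked the labels: its level was 6.03 in NC, 2.75 in KD1 and 1.48 in KD2, so that 10.3% and 4.26% of the NC signal remained. The share of probes well above background was 40.7% to 42.3% over the arrays, and no non-control spot was saturated. Of 12 colorectal epithelial markers, 8 were well above background on all arrays, among them EPCAM, KRT8, KRT18, KRT19, CDH1 and CDX2, whereas VIL1, KRT20 and CEACAM5 were not well above background on any. Of 9 fibroblast and endothelial markers, 3 were well above background (COL1A1, VWF and CDH5) and COL1A2, COL3A1, DCN and LUM were not. Of 5 leukocyte markers on the array, CD14 and ITGAM were well above background on all arrays and PTPRC on KD2 alone. Summed over a list, in units of each array's 75th percentile, the epithelial markers gave 5060 in NC, 3790 in KD1 and 4190 in KD2, the fibroblast and endothelial markers 3.7, 4.69 and 5.46, and the leukocyte markers 1.15, 1.32 and 2.31. The epithelial sum is mostly that of the brightest markers, KRT19, KRT18 and KRT8, which were below NC in both knockdowns. The list did not fall as a whole. Of 9 epithelial markers measured, 5 lay below NC in KD1 and 4 in KD2, and CDH1 was higher by 0.94 and 0.76. The part of these differences in the results below was not tested.

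Detection divided the 10 genes. AXIN2, NKD1, RNF43, ZNRF3, TCF7 and SP5 each had a probe well above background on all 3 arrays, and for these 6 genes that was the brightest probe. NOTUM, LEF1, ASCL2 and LGR5 were not well above background on any array. Of the 14 probes, 8 were well above background on all arrays, 1 (an AXIN2 probe) on both knockdown arrays, and 5 on none. For comparison, the brightest probe of 40.8% of 41749 gene names was well above background on all arrays.

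**Figure D1:**
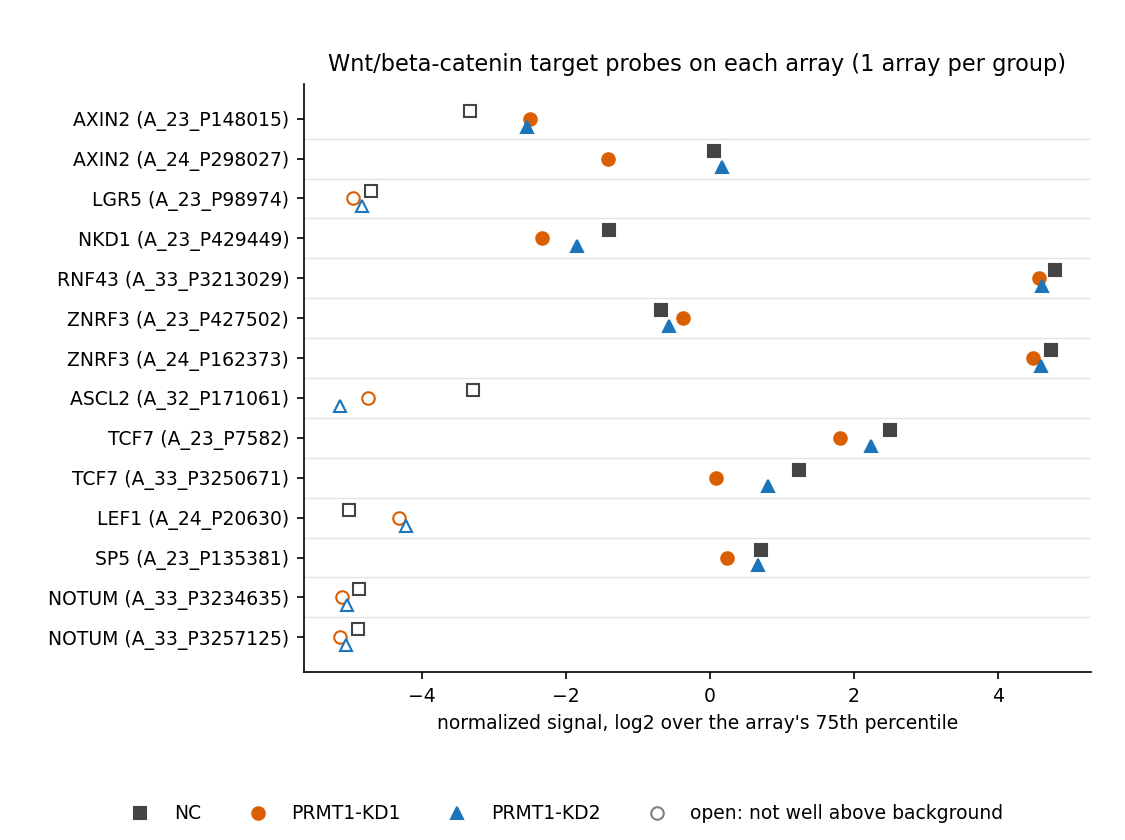
Normalized signal (log2 over the array's 75th percentile) of the 14 probes of the 10 Wnt target genes on the NC, PRMT1-KD1 and PRMT1-KD2 arrays, 1 point per array. Open symbols mark a probe not well above background there. The AXIN2 probe A_24_P298027 lies at 0.05 in NC and 0.17 in KD2 but at -1.42 in KD1, while levels of different probes are not comparable with each other.

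Against NC, 3 of the 6 measurable genes were lower by more than 1.5-fold in KD1 (AXIN2, NKD1 and TCF7) and none was higher. In KD2, 0 of the 6 passed 1.5-fold in either direction. Among all genes measured, 14.0% of 19231 were lower and 12.4% were higher in KD1, and 10.6% of 19421 were lower and 9.68% were higher in KD2. Of all 19231 genes, 10675 lay below NC in KD1. All 6 target genes lay below NC in KD1 (4 with no scaling between arrays and 3 with spike-in scaling), from -1.46 to -0.23 on the log2 scale with a median of -0.59, beside a median of -0.07 over all genes. In KD2 they ranged from -0.44 to 0.12 with a median of -0.16, beside -0.05 over all genes. Both comparisons share the NC array, so a deviation of that array enters both. Signals are of pooled RNA, in which fewer cells of a kind and less RNA per cell cannot be told apart.

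These KD1 counts depend on how the arrays were scaled and on the rule for a gene with several probes. With the mean over a gene's probes, NKD1 and TCF7 were lower by more than 1.5-fold in KD1 and AXIN2 was not. For AXIN2 that mean includes an NC reading not well above background. The 75th percentile of the unscaled log2 signal was 6.842 in NC, 7.257 in KD1 and 6.942 in KD2. With no scaling, or with scaling to 8 spike-in probes, only AXIN2 stayed past 1.5-fold in KD1. RNF43 and ZNRF3 then lay above NC, as did SP5 with spike-ins. The median of all genes was then 0.35 and 0.57 in KD1, and all 6 genes lay below it. Relative to the median of all genes, the 6 genes were below it in KD1 under each of the 8 other scalings, background corrections and spot rules tried. Among these settings the series matrix held the same intensities, so it could not differ. With the mean over probes, 5 of the 6 genes were below that median.

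AXIN2 encodes a scaffold of the destruction complex and is a feedback inhibitor of the pathway. Its brightest probe, A_24_P298027, lies on chr17:63554388-63554447 (hg19, minus strand) and is shown because the largest member change was read with it.
AXIN2 A_24_P298027: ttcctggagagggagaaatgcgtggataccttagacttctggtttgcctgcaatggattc
Its intensity was 118 in NC, 57.2 in KD1 and 138 in KD2, and its normalized level was 0.05, -1.42 and 0.17. KD1 stood apart from both other arrays, which were close to each other. KD1 was 2.76-fold lower than NC, a log2 difference of -1.46 with a spot error of 0.23 by the scanner software's error model. KD2 differed from NC by 0.12 ± 0.21 (spot error), less than that error. KD1 was 3.0-fold lower than KD2, a difference of -1.58. The robust SD of KD1 minus KD2 (scaled median absolute deviation) was 0.45 among genes in the same one of 5 brightness classes, so the gap between the knockdowns was wider than their usual spread.

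The other AXIN2 probe, A_23_P148015 on chr17:63525389-63525448, lies 28999 bases away in the direction of transcription. It did not show this pattern. Its level was -3.33 in NC, where it was not well above background, -2.50 in KD1 and -2.54 in KD2. KD1 was at least 1.14-fold and KD2 at least 1.11-fold higher than NC, and the knockdowns differed from each other by 0.04 ± 0.39 (spot error). The changes of the AXIN2 probes in KD1 were 1.66 log2 units apart. Over 3450 genes with exactly 2 measured probes the median gap in KD1 was 0.36, and 29.7% of the genes had a gap past 1.5-fold. The lower AXIN2 signal in KD1 rests on 1 spot of 1 probe. With the mean over both probes the AXIN2 difference was -0.31 in KD1 and 0.46 in KD2, and AXIN2 no longer passed 1.5-fold. That mean took the dimmer probe's NC level of -3.33 as read, without raising it to the lowest well-measured signal of -2.69. The loss of the call therefore rests in part on a reading not well above background.

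NKD1 binds dishevelled and restrains Wnt signalling. It has 1 probe, on chr16:50667885-50667944 (hg19, plus strand). Its level was -1.41 in NC, -2.33 in KD1 and -1.85 in KD2. Both knockdowns were below NC. KD1 was 1.89-fold lower than NC (log2 -0.92 ± 0.32, spot error) and KD2 was 1.36-fold lower (-0.44 ± 0.29). KD1 and KD2 differed by -0.48 ± 0.34, close to the robust SD of 0.44 in the dimmest brightness class, to which NKD1 belongs. With normexp background correction its KD1 difference was -0.36, so the call was lost.

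NOTUM encodes a secreted enzyme that removes the lipid from Wnt ligands. Its probes lie on chr17:79910388-79910447 and chr17:79910399-79910458, overlap by 49 bases and are not independent readings. Levels ran from -5.14 to -4.88, and neither probe was well above background on any array, so no fold was computed.

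RNF43 and ZNRF3 are paired ubiquitin ligases that remove Frizzled receptors from the cell surface. They were among the brightest genes on the arrays. RNF43, read by 1 probe on chr17:56431063-56431122, was at 4.80 in NC, 4.57 in KD1 and 4.61 in KD2. KD1 was 1.17-fold and KD2 1.14-fold lower than NC, with a log2 spot error of 0.20 for either difference. The knockdowns themselves differed by -0.04.

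ZNRF3 gave nearly the same values with its brightest probe, on chr22:29449612-29449671, at 4.74 in NC, 4.49 in KD1 and 4.6 in KD2. KD1 was 1.19-fold and KD2 1.1-fold lower than NC. Its dimmer probe, on chr22:29452861-29452920, was at -0.68 in NC, -0.38 in KD1 and -0.57 in KD2, and so was higher than NC by 0.31 ± 0.23 and 0.12 ± 0.23 (spot error). The ZNRF3 probes differed in sign in both knockdowns, and none of these changes passed 1.5-fold. In the brightest class the robust SD of KD1 minus KD2 was 0.27, and all RNF43 and brightest-probe ZNRF3 differences were below it.

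TCF7 encodes TCF1, a DNA-binding partner of beta-catenin that is itself a target. Its probes lie 4729 bases apart on chromosome 5. The brighter, A_23_P7582 on chr5:133483237-133483296, was at 2.50 in NC, 1.80 in KD1 and 2.24 in KD2. KD1 was 1.62-fold lower than NC (-0.70 ± 0.20, spot error) and KD2 1.19-fold lower (-0.26 ± 0.20). The dimmer probe, A_33_P3250671 on chr5:133478508-133478567 (hg19, plus strand), is shown because it read the larger TCF7 change.
TCF7 A_33_P3250671: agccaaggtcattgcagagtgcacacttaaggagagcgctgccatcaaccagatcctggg
It was at 1.24 in NC, 0.08 in KD1 and 0.81 in KD2. KD1 was 2.24-fold lower than NC (-1.16 ± 0.21, spot error) and KD2 1.35-fold lower (-0.43 ± 0.21). Both probes placed the arrays in the same order, with NC highest, KD2 between and KD1 lowest. KD1 was below KD2 by 1.36-fold with the brighter probe and 1.66-fold with the dimmer, beside a robust SD of 0.39 on the log2 scale for the brightness class of the former. With median scaling the brighter probe was at -0.58 in KD1 and no longer past 1.5-fold.

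LEF1, another factor of this family, had 1 probe on chr4:108968746-108968805. Its level was -5.02 in NC, -4.32 in KD1 and -4.22 in KD2. The probe was not well above background on any array, and these levels have no order.

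SP5 is a zinc finger transcription factor and a direct target in many tissues. Its probe on chr2:171574290-171574349 was at 0.71 in NC, 0.24 in KD1 and 0.67 in KD2. NC and KD2 were at nearly the same level and KD1 was below both. KD1 was 1.39-fold lower than NC (-0.47 ± 0.21, spot error), short of the threshold, and KD2 was 1.03-fold lower (-0.04 ± 0.21). The gap of -0.43 between the knockdowns was within the robust SD of 0.45 of its brightness class.

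The promoter of SP5 is shown because it is the single promoter among those given for these genes that held CTTTGA, a form of the TCF core motif. The 250 bases before the RefSeq transcription start were read, chr2:170715087-170715336 on the plus strand of GRCh38.p14, and capitals mark CTTTGA on either strand (TCAAAG on the other).
SP5 promoter: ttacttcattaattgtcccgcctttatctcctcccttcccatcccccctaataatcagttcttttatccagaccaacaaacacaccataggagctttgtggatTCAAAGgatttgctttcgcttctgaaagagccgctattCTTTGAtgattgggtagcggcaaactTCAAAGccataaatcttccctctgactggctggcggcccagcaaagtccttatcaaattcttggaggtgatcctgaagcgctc
The 3 matches began 147, 109 and 83 bases before the start and do not overlap. Of 35116 promoters of this length, 11.2% held at least 1 match and 23 held 3 or more. RefSeq promoters were given for 4 of the 10 genes. Those of LEF1, TCF7 and RNF43 had no match to CTTTGA. The shorter string CTTTG occurred in 42.1% of all promoters. It matched 5 times in SP5, 1 time in LEF1 and in each RNF43 promoter, and 0 or 2 times in the TCF7 promoters. Of all promoters, 2.83% held CTTTG 3 times or more. Whether the other promoters lack a match thus depends on the string chosen, while SP5 held the most matches among these promoters with either string. The genes without an entry were AXIN2, NKD1, NOTUM, ZNRF3, ASCL2 and LGR5. A match is a string of letters and does not show binding.

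ASCL2, a transcription factor of crypt stem cells, had 1 probe on chr11:2289959-2290018. Its level was -3.29 in NC, -4.76 in KD1 and -5.15 in KD2. The probe was not well above background on any array, so these levels have no order and no fold was computed. LGR5, the R-spondin receptor that marks crypt stem cells, was read by A_23_P98974 on chr12:71978325-71978384 (hg19, plus strand). Its sequence is shown because LGR5 is the usual marker of these cells and could not be measured here.
LGR5 A_23_P98974: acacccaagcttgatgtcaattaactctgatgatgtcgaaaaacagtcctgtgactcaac
Its level was -4.71 in NC, -4.96 in KD1 and -4.84 in KD2. All 3 were not well above background, where the lowest well-measured signal was -2.69, -2.996 and -2.823 on these arrays.

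**Figure D2:**
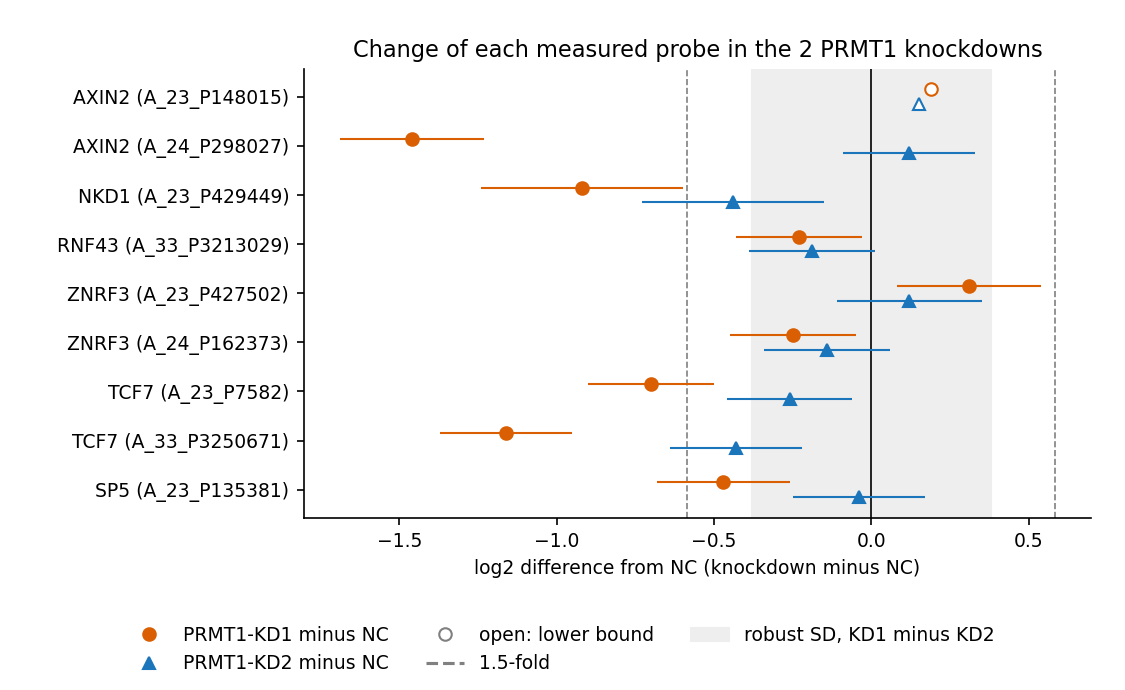
Log2 difference from NC of the 9 probes that could be measured, for PRMT1-KD1 and PRMT1-KD2. Bars are the spot error of the difference, open symbols are lower bounds, dashed lines are 1.5-fold and the grey band is the robust SD of KD1 minus KD2 over all genes (0.38). With 75th percentile scaling the KD1 points of AXIN2 A_24_P298027, NKD1 and both TCF7 probes lie left of the 1.5-fold line, and no KD2 point passes it.

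The knockdowns were then compared with each other. Of all 19544 genes measured, 9914 were lower in KD1 than in KD2. All 6 measurable target genes were lower in KD1, by a median of -0.44 beside -0.01 over all genes. Of these, 1 gene (AXIN2) passed 1.5-fold, where 9.66% of 19544 genes were lower in KD1 and 8.94% were higher. The robust SD of KD1 minus KD2 over the 17054 genes well above background on all arrays was 0.38. The gaps of NKD1, TCF7 and SP5 lay between -0.48 and -0.43, near the robust SDs of their own brightness classes (0.44, 0.39 and 0.45), and those of RNF43 and ZNRF3 were -0.04 and -0.11. PRMT1 itself was at 2.75 in KD1 and 1.48 in KD2. Whether the remaining PRMT1 signal bears on these gaps was not tested.

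KD1 and KD2 were also fitted together against NC with limma. The residual of this fit is the difference between the oligonucleotides, so a gene on which they differ, such as AXIN2, has a wide residual by construction, and a lack of calls says nothing about either knockdown alone. The fit called 0 of the 6 genes after Benjamini-Hochberg adjustment over 20050 genes, and 0 had an unadjusted p under 0.05. Over all genes the fit called 83, or 0.414%, and 1629 had an unadjusted p under 0.05. The number called with an adjusted p ran from 0 with quantile normalization to 258 with an intensity trend. The lowest adjusted p of the limma fit among the 6 genes was 0.646 for NKD1, with a mean difference of -0.68 and a standard error of 0.35, and it was lower in 2 of 2 knockdowns. AXIN2 had a mean of -0.67 and a standard error of 0.57 (limma adjusted p = 0.788). That error is wide since its knockdown values differed by -1.58. For the lone NC array the fit borrows the variance of the knockdowns.

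**Figure D3:**
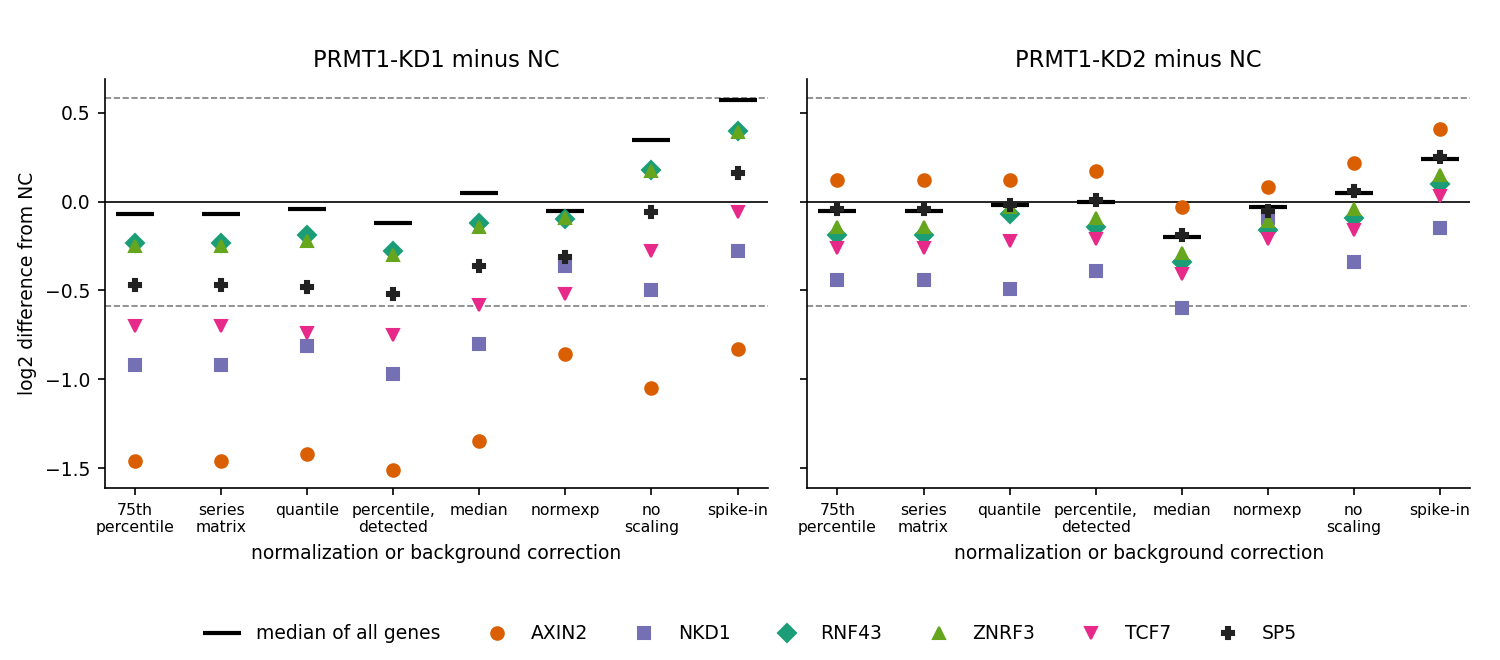
Log2 difference from NC of the 6 measurable genes under 8 ways of scaling or background correction, for PRMT1-KD1 (left) and PRMT1-KD2 (right), with the median of all genes as a black bar and 1.5-fold as dashed lines. AXIN2 stays below the lower line in KD1 in all 8, from -1.51 to -0.83, and in KD2 only NKD1 passes, with median scaling. With normexp the NKD1 point in KD1 rises to -0.36 while the median of all genes stays at -0.05.

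The rest of the pathway was described with 7 lists that hold 128 gene names on the array. Of these, 98 were measured in each comparison. In KD1, 14 were lower and 21 were higher than NC by more than 1.5-fold, with a median of 0.12, where 14.0% of all genes were lower and 12.4% were higher. In KD2, 7 were lower and 23 were higher, also with a median of 0.12, where the shares of all genes were 10.6% and 9.68%. The counts of each list below are a description beside these shares. These values are of the 75th percentile scaling, and the shifts of all genes given above apply to them too.

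Of the ligands and the proteins that export them, 12 were measured. In KD1, 1 was lower and 2 were higher, and in KD2, 1 was lower and 5 were higher. WNT7A (0.85 in KD1 and 0.76 in KD2) and WNT16 (1.13 and 1.01) were past 1.5-fold higher than NC in both. Of 14 receptors and co-receptors measured, 3 were lower and 4 higher in KD1, and 2 were lower and 2 higher in KD2. FZD2 (-0.97 and -0.92) and the co-receptor LRP5 (-0.83 and -1.38) were lower in both knockdowns. PTK7, a receptor-like protein of the non-canonical branch, was higher in both (0.71 and 0.82). Of 3 R-spondin system genes measured, 1 was lower and 0 higher in KD1, and 1 was lower and 2 higher in KD2. LGR6 was lower in both (-0.95 and -0.68), and LGR4, the relative of LGR5 with the widest expression, was at 0.06 in KD1 and 1.37 in KD2. The NC levels of LGR4 (-2.35) and WNT7A (-2.50) lay near the lowest well-measured signal of that array, -2.69. Of 5 Wnt antagonists measured, 0 passed 1.5-fold in KD1, and 1 was higher in KD2.

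Of 17 genes of the dishevelled and destruction complex list, 2 were lower and 5 higher in KD1, and 0 were lower and 3 higher in KD2. AXIN1, the constitutively expressed relative of AXIN2, was higher in both knockdowns (0.78 and 0.98). The tankyrases, which mark axins for degradation, were higher in both as well, TNKS by 0.98 and 0.60 and TNKS2 by 0.71 and 0.61. APC, the scaffold that is the usual tumour suppressor of the pathway, was at -1.19 in KD1 and -0.55 in KD2, the latter short of 1.5-fold. Its other probe was not well above background on any array. CTNNB1 was at 0.23 and 0.14, and GSK3B at -0.07 and 0.34.

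Of 16 TCF factors and nuclear cofactors measured, 1 was lower and 3 higher in KD1, and 0 were lower and 1 higher in KD2. TCF7L2, the main TCF factor of the intestine, was at -0.90 in KD1 and -0.41 in KD2 with its brightest probe. Its 3 other probes gave values from -0.59 to 0.33 in KD1 and from -0.40 to 0.46 in KD2. TCF7L1, a factor that mostly represses, was at 0.48 and 0.78. The TCF7L2 probes therefore did not share a direction.

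Of 31 other targets measured, 6 were lower and 7 higher in KD1, and 3 were lower and 9 higher in KD2. MYC, the growth regulator, was higher in both (0.87 and 0.75), though its dimmer probe, not well above background in KD1, was lower there with a bound of -1.52 and at -0.22 in KD2. SOX9, a crypt transcription factor, was higher in both (1.42 and 0.92), as were ETS2 (1.17 and 1.03) and FGF20 (1.40 and 2.0). L1CAM was at least 0.59 and 0.63 higher, since its NC signal was not well above background. Its dimmer probe was well above background in NC alone and gave a bound of -0.77 in KD1. In KD2 it gave -0.39, with the KD2 value kept as read. BMP4 was lower in both (-0.96 and -0.59), and TDGF1, well above background in NC alone, was lower by bounds of -0.87 and -0.69. CCND1 was at 0.45 and 0.15, and CD44 at 0.95 and 0.21 with its brightest probe and 0.10 and 0.75 with its dimmer probe. EPHB2 was at -0.07 and 0.09 with its brightest probe, but its 2 dimmer probes gave 0.75 and 1.43 in KD1 and 0.17 and 0.95 in KD2. SMARCA4, the chromatin remodelling enzyme also studied by the authors, was at 0.31 and 0.11.

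**Figure D4:**
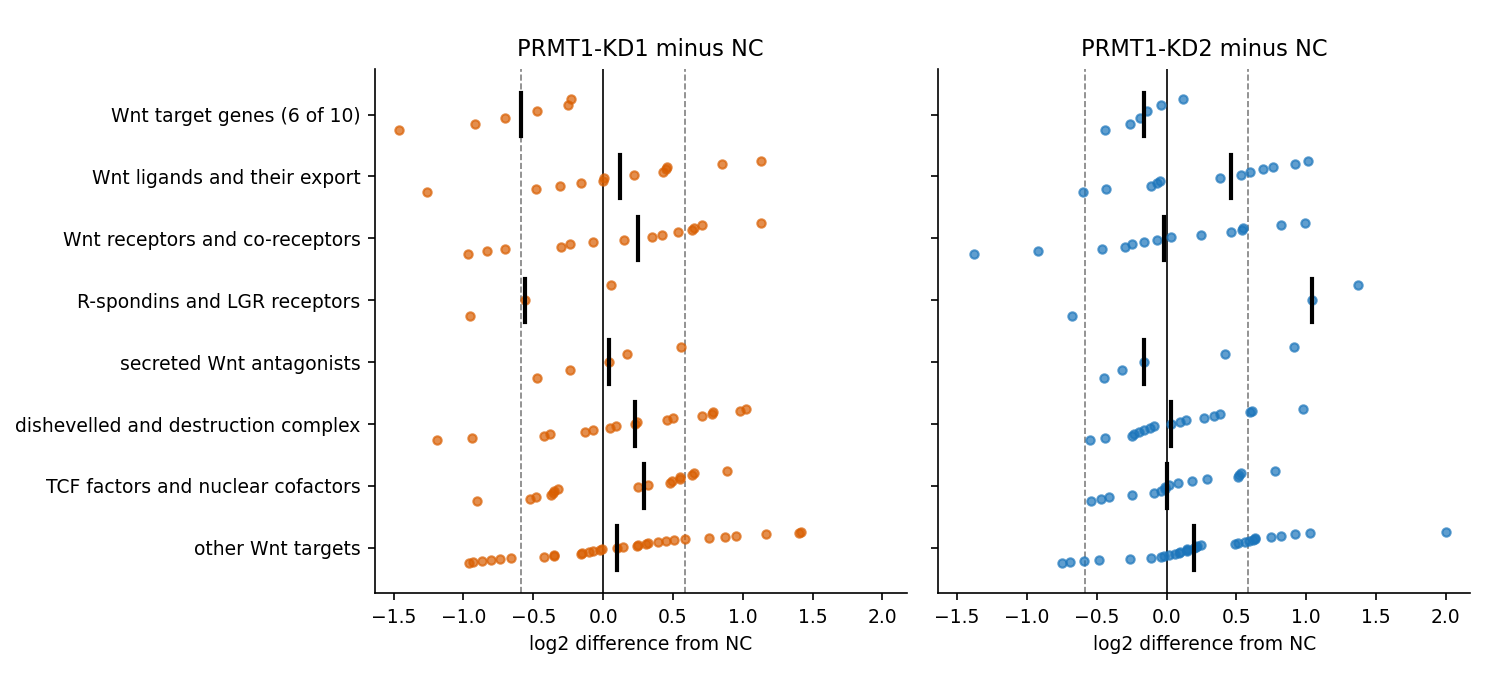
Log2 difference from NC of each measured gene of the Wnt target list and of 7 further pathway lists, for PRMT1-KD1 (left) and PRMT1-KD2 (right). Each point is a gene read by its brightest probe, black bars are list medians and dashed lines are 1.5-fold. With 75th percentile scaling the 6 target genes lie from -1.46 to -0.23 in KD1 and from -0.44 to 0.12 in KD2, while the other lists, except R-spondins and LGR receptors in KD2 (1.04) and KD1 (-0.56), have medians between -0.16 and 0.46.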

How the data were processed

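Agilent Feature Extraction 10.7.1.1 output of 3 one-colour arrays (NC, PRMT1-KD1 and PRMT1-KD2, 1 slide and 1 scan) was used. The authors deposited processed intensity values, background-corrected on each array and, per the file headers, not scaled between arrays. The deposited series matrix held the same intensity values (r = 1 on the log2 scale). Probe positions are of build hg19.

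Spots marked as outliers were left out, which removed none of the 14 member probes. From log2 intensity the 75th percentile of the array's non-control probes was taken away, and the brightest probe stood for a gene. A gene was measured if well above background on at least 1 array compared. A change that uses a value not well above background is called a bound. Such a value was raised to the array's lowest well-measured signal if it lay below that signal, and otherwise kept as read. Means over probes were taken before this step, so a probe below background entered them unraised. With 1 array per group no p-value is possible for a single knockdown, so 1.5-fold was used alone. The paper's methods pair that fold with a p-value threshold. Spot error is the software's model error. limma 3.58.1 (R 4.3.3) fitted both knockdowns against NC with Benjamini-Hochberg adjustment. Python 3.11.15 did the rest, tested on simulated data.

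Members and lists were chosen with earlier results of these data known. Genes named were all members, PRMT1, SMARCA4, a set of 12 pathway genes (CTNNB1, APC, AXIN1, GSK3B, TCF7L2, TCF7L1, LGR4, MYC, CCND1, EPHB2, SOX9 and CD44), and list genes that passed 1.5-fold in 1 direction in both. Of these, 1 is not reported here. The SMARCA4 knockdowns were not analysed here. Alternatives were normexp (offset 50), quantile, median, detected-probe percentile and spike-in scaling, the series matrix, other filters and probe rules, a fold of 2 and an intensity trend. No scaling between arrays, and outlier spots kept in limma, were added after seeing the data.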

Additional observations from a re-analysis of the deposited data

Results flagged for a closer look

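The AXIN2 probe A_24_P298027 lay below NC in PRMT1-KD1 and above it in PRMT1-KD2, and the effects differed by -1.58 on the log2 scale. With 1 array per knockdown this difference was not tested. Its other probe gave 0.04 for the same difference.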

How the results depend on the processing

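Quantile normalization and the detected-probe percentile left all counts of target genes past 1.5-fold as they were. The series matrix values, outlier spots kept, and a filter to probes above background on both arrays did too, but these could hardly change the counts. The series matrix held the same intensities, no member probe was removed as an outlier, and all 6 genes were well above background on all arrays. The count lower in PRMT1-KD1 was 3 and became 1 with normexp, with spike-in scaling, with no scaling between arrays (added after seeing the data) and at a fold of 2. It was 2 with the mean over a gene's probes, where AXIN2 was lost with an unraised NC reading of its dimmer probe. It was 4 with no filter and no floor, where ASCL2 was added below background. Their median of -0.59 in KD1 became -0.39 with the mean over probes, -0.33 with normexp, 0.05 with spike-in scaling and -0.17 with no scaling, the last 2 beside medians of all genes of 0.57 and 0.35. Scaling to the arrays' medians put 1 gene (NKD1) lower in PRMT1-KD2, against 0. With no filter and no floor, where genes not well above background are counted, 1 gene was higher in KD1, and 1 was lower and 1 higher in KD2. The causes were not tested beyond what each setting changes by construction. limma called 0 of these genes in its fit and in the 9 alternatives run for it (the scalings and background corrections, outlier spots kept and the intensity trend), with 0 to 258 genes called in all. No paired analysis was possible because the groups share only 1 replicate number and hold 1 array each. Signal over background limits 4 of the 10 genes entirely and NKD1 in part.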
